A study of Mus musculus with 20 samples.

Results

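The muscle microRNAs (miRNAs) of mouse serum are described here: mmu-miR-1a-3p, mmu-miR-133a-3p, mmu-miR-133a-5p, mmu-miR-133b-3p, mmu-miR-206-3p, mmu-miR-208b-3p and mmu-miR-499-5p, named below without the species prefix. These 7 names were chosen by name from the 1915 mature names of the count table, each with the table row of highest total. Serum came from female mice labelled as an Ames dwarf strain on a heterogeneous genetic background, either normal or Ames dwarf. Each genotype was sampled at 5 to 6 months (young) and at 21 to 22 months (old), which gives 4 groups of 5 libraries. All groups share strain, sex, sample type and library kit. Ames dwarf mice are small and lack growth hormone, prolactin and thyrotropin. This is background, since the labels give only the dwarf phenotype. Whether the 5 samples of a group came from separate mice is not stated, so p-values measure the spread between these samples, which may be technical.

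Striated muscle cells make these miRNAs at high levels, and some reach the blood, where injury or turnover of skeletal muscle and heart raises them. miR-1a and miR-133a are made from shared transcripts and are found in both skeletal muscle and heart, where miR-1a favours differentiation and miR-133a tempers growth. miR-206 and miR-133b share another transcript, and miR-206 is known from skeletal muscle and its regeneration. miR-208a, miR-208b and miR-499 lie inside myosin heavy chain genes: miR-208a in Myh6, the fast adult myosin of the rodent heart, miR-208b in Myh7, the slow myosin, and miR-499 in Myh7b. In the rodent heart thyroid hormone raises transcription of Myh6 and lowers that of Myh7. Serum holds no muscle cells, so a lower level cannot tell fewer source cells from less RNA released by each.

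Mature sequences of 4 of the 7 members were found in RefSeq (GRCm38.p6). miR-208a-3p, a close relative outside the 7, is set beside them. Its ratio to miR-208b-3p, chosen after the values had been seen, is described below. Capitals mark the seed, bases 2 to 8 from the 5′ end, which pairs with targets.
miR-133b-3p: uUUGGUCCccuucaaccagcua
miR-206-3p: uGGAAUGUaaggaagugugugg
miR-208b-3p: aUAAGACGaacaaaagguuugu
miR-208a-3p: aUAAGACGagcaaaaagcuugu
miR-499-5p: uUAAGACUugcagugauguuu
miR-208a-3p and miR-208b-3p have the same seed and share 19 of 22 bases. Counted from the 5′ end of miR-208a-3p, they differ by G10A, A16G and C18U. The seed of miR-499-5p shares 6 of 7 bases with theirs. miR-1a-3p, miR-133a-3p and miR-133a-5p are given by name.

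In GENCODE M21 (GRCm38), Mir208b occupies positions 54975700 to 54975776 of chromosome 14, in an intron of Myh7 on the same strand. Mir208a occupies 54949060 to 54949142 of the same chromosome, in an intron of Myh6. Mir499 occupies 155622880 to 155622958 of chromosome 2, in an intron of Myh7b. Mir206 (chromosome 1, 20679010 to 20679082) and Mir133b (20682769 to 20682887) both overlap exons of the long noncoding gene Gm28653. One copy of Mir1a (180389048 to 180389124) and one of Mir133a (180398379 to 180398482) lie on chromosome 2 between annotated genes.

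miR-133a-3p made up almost all muscle miRNA reads in serum, while miR-206-3p was nearly absent. Of the reads of the 7 members, miR-133a-3p held 96.8%, miR-133b-3p 2.07%, miR-208b-3p 0.398%, miR-133a-5p 0.353% and miR-499-5p 0.348%. miR-1a-3p held 0.0762%. Over the 20 libraries miR-133a-3p had 155005 reads, from 0.0254% to 1.09% of the miRNA reads of a library, and ranked 15 to 83 among all names. miR-1a-3p, which is made from the same transcripts, had 122 reads, or 1 for every 1271 reads of miR-133a-3p. Its share of both was 0.0787% (95% exact interval 0.0653 to 0.0939%, counting error only). Ligation during library preparation favours some small RNAs over others, so these read shares are not shares of molecules, and the cause of the imbalance was not tested.

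miR-206-3p, the skeletal muscle member, had 3 reads in all, 2 in young dwarf replicate 3 and 1 in young dwarf replicate 4. In the other 18 libraries it had 0 reads, and a count of 0 allows from 0.844 to 2.69 CPM by library (CPM is the count scaled to a common, TMM-adjusted library total). miR-206-3p was removed by the filter on low counts and is not tested. The other 6 members passed it. The label of a muscle group therefore rests on the miR-133 and miR-1 names and on miR-208b-3p and miR-499-5p, the members from myosin genes.

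miR-133a-3p, the most abundant member, varied widely within groups. It stood at 1060.1, 7544, 3351, 1074 and 6618 CPM in young normal replicates 1 to 5, and at 314, 1352, 1096.5, 3968 and 323 CPM in old normal replicates 1 to 5. It stood at 1772, 4654, 4020.4, 4919 and 5369 CPM in the 5 young dwarf libraries and at 2909.8, 2435, 1972.9, 3779 and 5553 CPM in the 5 old dwarf libraries. Old normal replicate 4 reached the dwarf range, while the other 4 old normal libraries lay below every dwarf library. Young normal libraries fell into 2 low, 1 middle and 2 high values that spanned the dwarf ones.

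miR-133b-3p is nearly identical in sequence to miR-133a-3p, and reads of the pair cannot be fully separated by counting. It stood at 6.31, 175.8, 71.1, 12.9 and 132.9 CPM in young normal and at 3.02, 13.4, 17.9, 50.1 and 5.49 CPM in old normal libraries. In young dwarf libraries it stood at 21.8, 71.9, 179.2, 119.4 and 92.3 CPM, and in old dwarf libraries at 95.3, 22.9, 25.9, 111.2 and 150.01 CPM. All dwarf libraries lay above 4 of the 5 old normal ones. miR-133a-5p, the other arm of the miR-133a hairpin, had a mean of 13.1 ± 12.6 CPM (SD, n = 5) in young and 2.67 ± 4.05 CPM in old normal serum, and of 18.2 ± 6.42 and 12.5 ± 8.63 CPM in young and old dwarf serum. Old normal replicate 1 held no read of it, and old normal replicate 4 held 9.80 CPM.

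miR-1a-3p was detected in 16 of the 20 libraries. Normal libraries held 41 reads of it in young and 4 in old mice, and dwarf libraries 55 and 22. In old normal serum it had 0, 0, 1, 3 and 0 reads in replicates 1 to 5, and young normal replicate 1 also had 0. All 10 dwarf libraries had at least 1 read, at 0.474 to 7.66 CPM in young and 0.682 to 3.77 CPM in old dwarf serum, ranges that overlap both normal groups.

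miR-208b-3p, from the slow myosin gene Myh7, had a higher mean in dwarf than in normal serum at both ages, with overlap between libraries. It stood at 1.46, 7.95, 6.46, 2.53 and 7.05 CPM in young normal and at 2.37, 22.1, 18.1, 18.4 and 52.6 CPM in young dwarf replicates 1 to 5. Thus 4 of 5 young dwarf libraries lay above all young normal ones, and young dwarf replicate 1 lay among them. It stood at 1.01, 0.895, 4.37, 22.3 and 1.37 CPM in old normal and at 21.5, 11.5, 8.45, 35.5 and 30.8 CPM in old dwarf libraries. All old dwarf libraries lay above old normal replicates 1, 2, 3 and 5, and old normal replicate 4 lay inside the dwarf range.

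miR-499-5p, from the slow myosin gene Myh7b, did not show that split. Its mean was 17.1 ± 16.2 CPM in young and 5.95 ± 7.75 CPM in old normal serum, and 13.1 ± 6.98 and 8.93 ± 6.17 CPM in young and old dwarf serum (SD, n = 5). Young normal replicates 2 and 5, at 38.1 and 31.02 CPM, lay above all dwarf libraries, which reached 24.1 CPM. miR-208a-3p, from the cardiac gene Myh6, stood at 11.4 ± 9.76, 5.10 ± 4.51, 6.19 ± 2.98 and 6.15 ± 4.89 CPM in the same order, and its groups overlapped.

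**Figure D1:**
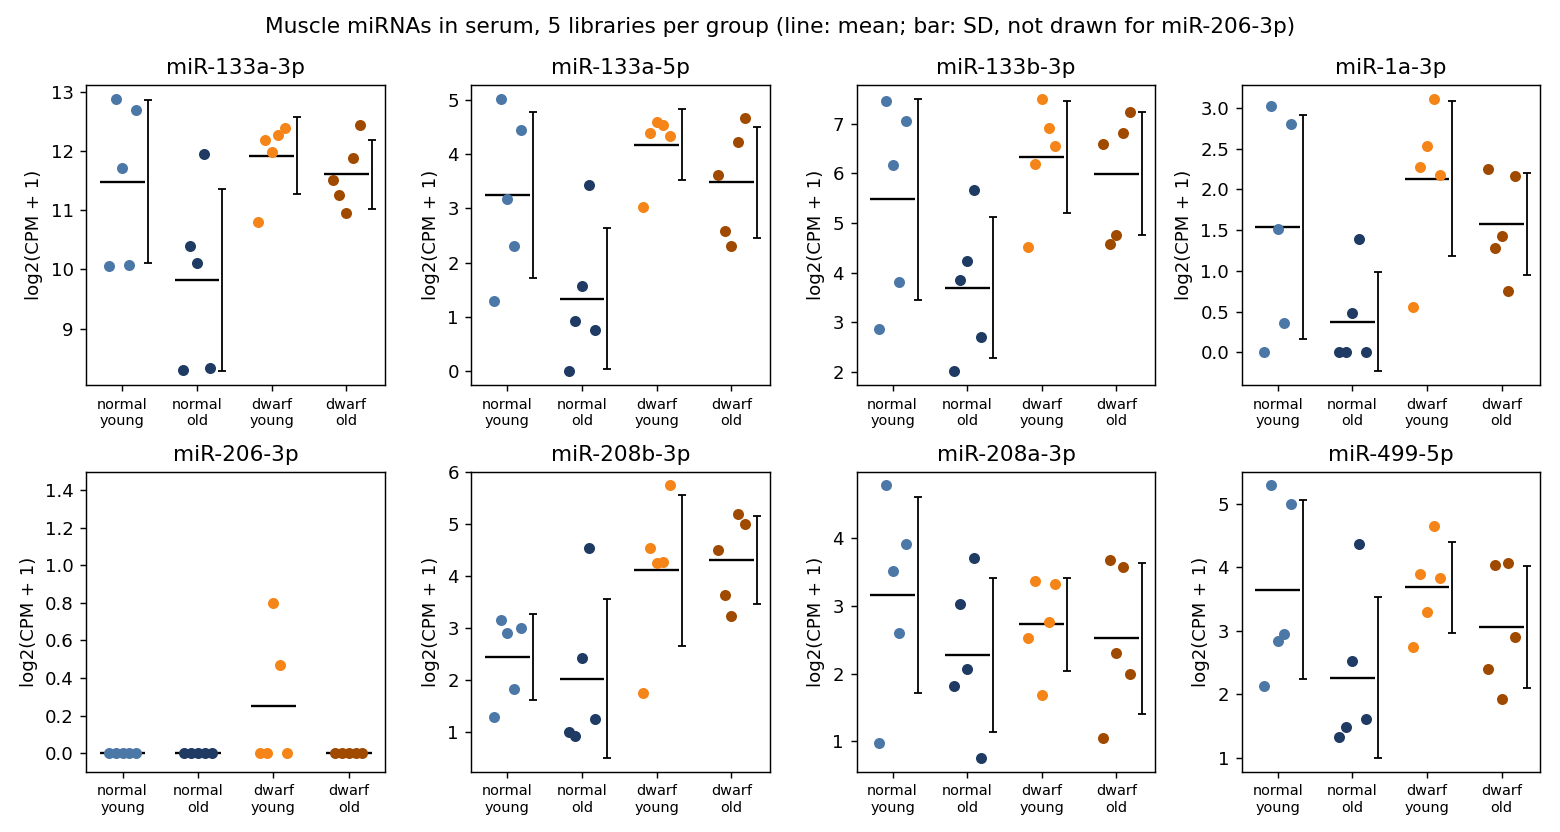
Level of the 7 muscle miRNAs and of miR-208a-3p in each of 20 serum libraries, as log2(CPM + 1), by genotype and age (points: libraries; line: mean; bar: SD, not drawn for miR-206-3p). Old normal replicate 4, at 3968 CPM of miR-133a-3p, stands above the other 4 old normal libraries, and miR-206-3p is at 0 in 18 libraries.

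Whether genotype changes serum miRNAs was asked at each age with edgeR's quasi-likelihood test, fitted to 360 miRNAs, with Benjamini-Hochberg adjusted p under 0.05 as the threshold. In young mice no muscle miRNA differed past it (0 of 6 tested, against 0% of all tested miRNAs), and 5 of the 6 had a positive difference. miR-208b-3p was higher in dwarf serum by log2 2.14 ± 0.78 (SE, adjusted p 0.369, unadjusted p 0.0123), the only member with an unadjusted p under 0.05. The differences of miR-133a-3p, miR-133b-3p, miR-133a-5p and miR-1a-3p lay between log2 0.08 and 0.48, below their standard errors, and that of miR-499-5p was log2 -0.37 ± 0.71. The median over the 6 members was log2 0.36, against -0.04 over all 360. DESeq2 also called 0 of the 6 (its Wald test), and 6 miRNAs in all.

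In old mice all 6 tested members lay higher in dwarf than in normal serum, and none passed the threshold, whereas 26.4% of all tested miRNAs did (16.1% higher). The members' median was log2 2.001, against -0.06 over all 360 miRNAs, and 4 members had an unadjusted p under 0.05. miR-133a-5p was higher by log2 2.21 ± 0.85 (adjusted p 0.0596), miR-133b-3p by 2.17 ± 0.85 (0.0607), miR-208b-3p by 1.83 ± 0.79 (0.0818) and miR-1a-3p by 2.35 ± 1.10 (0.103). miR-133a-3p was higher by log2 1.24 ± 0.63 (0.133) and miR-499-5p by 0.59 ± 0.76 (0.568). The count of members past the threshold was 5 without old normal replicate 4, when miR-499-5p alone stayed above 0.05. In that fit 86 of all miRNAs passed. The count was 2 without young normal replicate 1, old dwarf replicate 2 or old dwarf replicate 3 (104, 143 and 125 of all miRNAs). DESeq2 called 3 of the 6, and 136 miRNAs in all against 95 by edgeR.

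**Figure D2:**
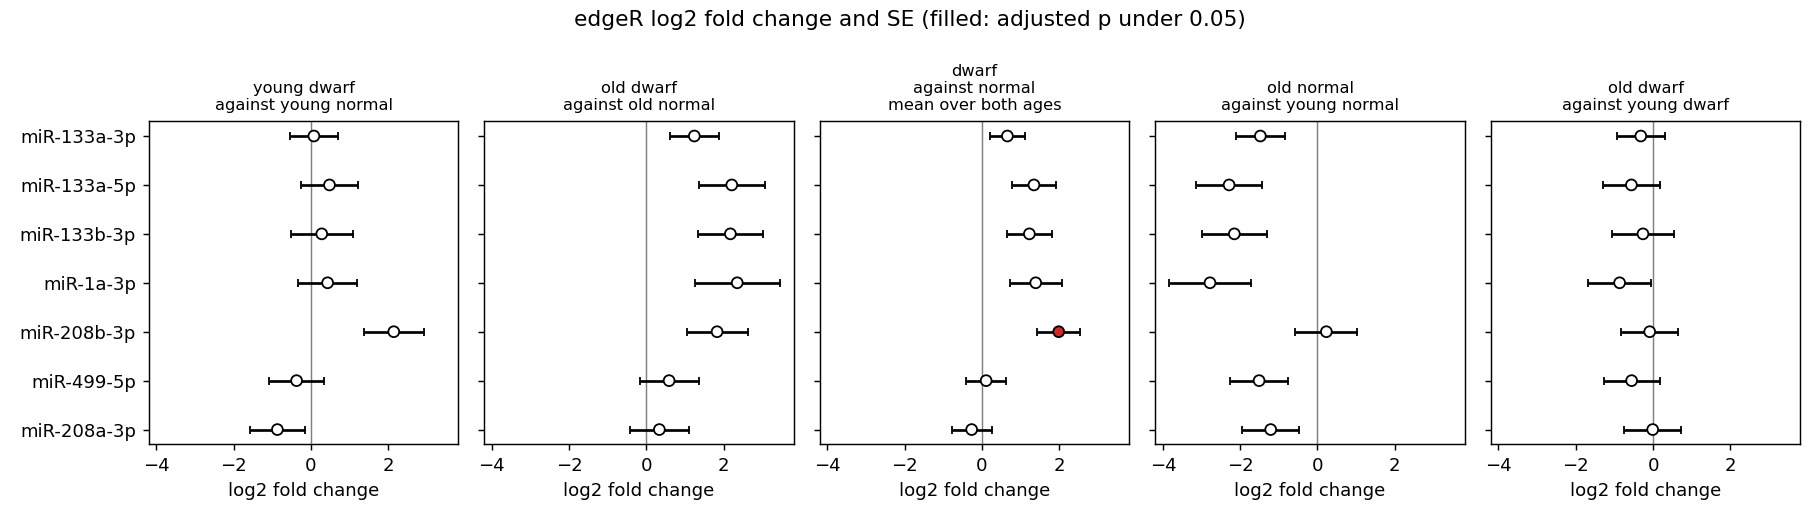
Log2 fold change with SE of 6 muscle miRNAs and miR-208a-3p in 5 comparisons (edgeR, all 20 libraries in the fit; filled points have an adjusted p under 0.05). miR-208b-3p lies near log2 2 in the genotype comparisons and near 0 in both age comparisons. Its age value in normal mice was log2 -1.30 without old normal replicate 4. The miR-133 names and miR-1a-3p are farthest from 0 in the comparisons with old normal serum.

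Whether age changes these miRNAs was asked within each genotype. In normal mice 5 of the 6 members lay lower in old serum and none passed the threshold, against 15.6% of all tested miRNAs (10.6% lower). The members' median was log2 -1.83, against 0.00 (-0.004) over all 360, and 4 had an unadjusted p under 0.05. miR-1a-3p was lower by log2 -2.78 ± 1.05 (adjusted p 0.0694), miR-133a-5p by -2.29 ± 0.84 (0.0653), miR-133b-3p by -2.15 ± 0.84 (0.0751), miR-133a-3p by -1.48 ± 0.64 (0.0962) and miR-499-5p by -1.51 ± 0.75 (0.136). miR-208b-3p differed by log2 0.23 ± 0.80 (0.855), which was -1.30 without old normal replicate 4. The count past the threshold was 5 without old normal replicate 4, 4 without young normal replicate 1 and 3 without young normal replicate 4. Over all miRNAs 62, 123 and 82 passed in those fits. DESeq2 called 4 of the 6, and 117 miRNAs in all against 56 by edgeR.

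In dwarf mice the 6 members differed between ages by log2 -0.86 to -0.09, and none passed the threshold (adjusted p 0.997 for each), against 0.556% of all tested miRNAs. No member had an unadjusted p under 0.05, and DESeq2 called 0 (2 miRNAs in all). The age effect was not shown to differ between genotypes. The difference of the age effects was log2 1.16 ± 0.88 for miR-133a-3p and 1.89 ± 1.15 for miR-133b-3p. Its edgeR adjusted p was 0.420 or higher for all 6 members (0.556% of all miRNAs passed). For it DESeq2 called 0 members and 20 miRNAs in all. The comparisons of old normal serum with old dwarf and with young normal serum share the 5 old normal libraries, so their values for a member are not independent.

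With both ages together, 1 of the 6 tested members, miR-208b-3p, was called higher in dwarf serum, near the 15.3% of all tested miRNAs. This comparison, the mean of the genotype differences at both ages, was added after those differences had been seen, so it is not independent of them. miR-208b-3p was higher in dwarf serum by log2 1.99 ± 0.55 (edgeR adjusted p 0.019), and kept an adjusted p of 0.0392 or lower with each of the 20 libraries left out in turn (log2 1.71 to 2.71). It was the 1 member of 6 past the threshold, against 27.8% of all tested miRNAs (15.3% higher). The other 5 lay between log2 0.11 for miR-499-5p and 1.39 for miR-1a-3p (adjusted p 0.0791 or higher). The count was 3 without old normal replicate 4 and 2 without young normal replicate 2 or young dwarf replicate 1. Over all miRNAs 84, 98 and 145 passed in those fits. DESeq2 called 2 members, and 128 miRNAs in all. With the haemolysis index as a covariate, miR-208b-3p was higher by log2 1.85 (adjusted p 0.103), and 16 of all 360 miRNAs passed in place of 100. Markers of other tissues differed in the same comparison, and their part in the result was not tested. All 4 liver markers tested were higher in dwarf serum and 2 passed, miR-802-5p (log2 2.13, adjusted p 0.00641) and miR-192-5p (log2 0.95, adjusted p 0.0213). All 6 listed Dlk1-Dio3 miRNAs were called higher and 2 of 3 lymphocyte markers lower (12.5% of all tested miRNAs were lower). These marker lists were chosen with earlier results of these data known, so their counts are a description.

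Reads of miR-208b-3p were also set against those of its relatives within each library. The pairs with miR-208a-3p and miR-499-5p were chosen after the values had been seen, so their ratios are a description. Since 1 was added to each count, ratios of low counts still depend on depth. The log2 ratio of miR-208b-3p to miR-208a-3p reads (1 added to each) was -0.76 ± 0.76 in normal against 1.46 ± 1.46 in dwarf libraries of young mice, and -0.23 ± 1.31 against 1.91 ± 1.56 in those of old mice (SD, n = 5). In reads, miR-208b-3p had 72 against 157 of miR-208a-3p in young normal libraries and 306 against 83 in young dwarf libraries. It had 59 against 45 in old normal and 201 against 64 in old dwarf libraries. More miR-208b-3p than miR-208a-3p reads were found in 8 of 10 dwarf libraries, the exceptions being young dwarf replicate 1 (5 and 10 reads) and old dwarf replicate 2 (32 and 33 reads). The same held in 4 of 10 normal libraries, 1 of 5 young and 3 of 5 old.

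The mean ratio lay log2 2.23 higher in dwarf than in normal libraries of young mice and 2.14 higher in those of old mice. Neither difference passed the exact 2-sided permutation test after adjustment (adjusted p 0.163 for both over 16 tests), and libraries of the genotypes overlapped at each age. Averaged over both ages, the ratio to miR-208a-3p lay log2 2.18 higher in dwarf serum (1.94 to 2.47 with 1 library left out), and that to miR-499-5p 1.66 higher (1.47 to 1.87). Neither the source tissue of miR-208b nor any hormone was measured, and their part in the difference was not tested.

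**Figure D3:**
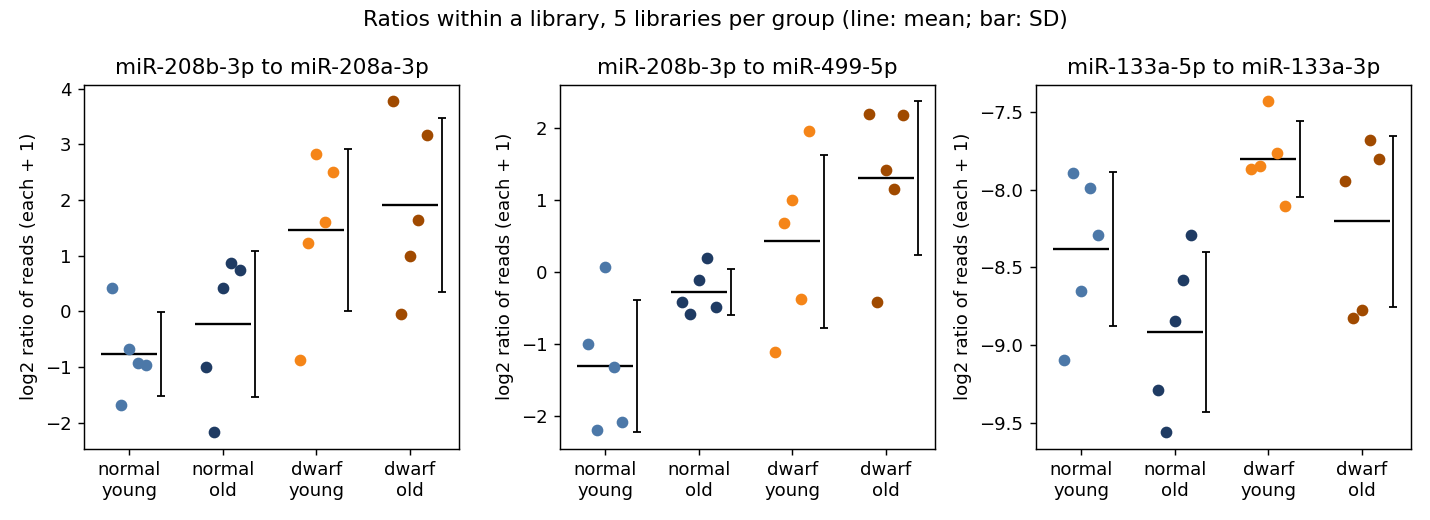
Log2 ratio of reads (1 added to each) within each of 20 libraries for 3 pairs of muscle miRNAs, by genotype and age (points: libraries; line: mean; bar: SD). The dwarf means of miR-208b-3p to miR-208a-3p, 1.46 and 1.91, lie above the normal means, -0.76 and -0.23, with overlap between libraries.

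The arms of the miR-133a hairpin were compared in the same way. The log2 ratio of miR-133a-5p to miR-133a-3p was -8.38 ± 0.50 in normal against -7.80 ± 0.24 in dwarf libraries of young mice, and -8.92 ± 0.51 against -8.21 ± 0.55 in those of old mice. It was log2 0.58 higher in dwarf serum in young mice (exact p 0.0397) and 0.71 in old mice (exact p 0.0714), with an adjusted p of 0.163 for both. Averaged over both ages it lay log2 0.64 higher. miR-133a-5p has few reads, 26 in all old normal libraries, so the added count weighs on that group. The ratio of miR-133a-3p to miR-1a-3p differed between genotypes by log2 -0.46 in young and 0.10 in old mice (exact, adjusted p 0.335 and 0.873). The sign in old mice turned with the count added, since miR-1a-3p had 0 reads in 3 old normal libraries.

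Across the 20 libraries the members rose and fell together, which is a description, since members within a library share its depth and scaling. Pearson's r of log2 CPM was 0.941 between miR-133a-3p and miR-133b-3p, 0.944 between the arms of miR-133a and 0.861 between miR-133a-3p and miR-1a-3p. miR-208b-3p was less tied to miR-208a-3p (0.329, and 0.469 with group means removed) than to miR-133a-3p (0.784 and 0.796). Outside the members, the miRNAs most like miR-133a-3p over the 20 libraries were miR-341-3p (0.889), miR-125b-1-3p (0.871) and miR-582-3p (0.869). Those most like miR-1a-3p were miR-214-5p (0.873), miR-199a-3p and miR-199b-3p (0.867 for both, whose reads are shared). With group means removed, miR-149-5p (0.928) was closest to miR-133a-3p and miR-214-5p (0.820) to miR-1a-3p.

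Other arms and relatives of the same hairpins were scarce. Of the 11 listed, 4 had no read, and miR-208a-3p (in all 20 libraries), miR-1a-1-5p (in 10) and miR-208a-5p (in 7) were the ones with at least 10 reads in all. miR-1a-1-5p, the other arm of a miR-1a hairpin, had 18 reads, and miR-208a-5p had 15. miR-208a-3p was not past the threshold in any comparison (adjusted p 0.218 or higher).

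Of 13 miRNAs with known roles in muscle that are also made elsewhere, 1 rose and 1 fell in old dwarf serum relative to old normal serum (16.1% of all miRNAs higher and 10.3% lower). miR-378a-5p, from the metabolic gene Ppargc1b, rose from 12.6 ± 2.78 to 35.4 ± 23.5 CPM (log2 1.46 ± 0.53, adjusted p 0.0471). The far more abundant other arm, miR-378a-3p, was not called, at 3727 and 4422 CPM (log2 0.25, adjusted p 0.622). miR-222-3p, which restrains muscle differentiation, fell from 659 ± 221 to 265.05 ± 153.4 CPM (log2 -1.31 ± 0.47, adjusted p 0.0444). miR-221-3p, on the same list, was not called (log2 -0.16, adjusted p 0.466). The call of miR-378a-5p held in 7 and that of miR-222-3p in 8 of 20 fits with 1 library left out, and each had an adjusted p of 0.152 or higher without old dwarf replicate 4. In the same comparison miR-26a-5p was higher by log2 0.93 (adjusted p 0.0552) and miR-181a-5p lower by -0.60 (0.0611), and the list's median was log2 0.00 (-0.003). In old against young normal serum miR-181a-5p rose by log2 0.70 ± 0.24 (adjusted p 0.0487), a call that held in 5 of 20 fits with 1 library left out. With both ages together miR-222-3p fell by 0.96 on the log2 scale (adjusted p 0.0376). No other member of this list passed in these comparisons, and none did in young dwarf against young normal serum or between ages in dwarf mice.

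Some markers of other cells also differed between these groups and others did not, and their part in the results was not tested. Libraries held 1343137 to 4710263 miRNA counts. The haemolysis index, the log2 ratio of the red-cell miRNA miR-451a to miR-23a-3p, had means of 5.45 and 4.30 in young and old normal libraries and of 5.40 and 5.38 in young and old dwarf libraries, so it was lowest in the group where the muscle miRNAs were lowest. In the 5 old normal libraries it was 4.83, 3.13, 4.71, 4.1967 and 4.65 in replicates 1 to 5. With the index as a covariate, 0 miRNAs in place of 95 passed between old groups and 1 in place of 56 between ages in normal mice. Of 4 red-cell markers 1, miR-451a, was called lower with age in normal mice (10.6% of all tested miRNAs were). None was called between genotypes at either age. With age in normal mice 3 of the 4 lay lower and 1, miR-486a-5p, lay higher (log2 0.59, edgeR adjusted p 0.147). The summed red-cell level, unlike the index, was highest in old normal libraries, at a mean of 410759 CPM against 298086 in young normal libraries. Between old groups, all 3 lymphocyte markers were called lower in dwarf serum (10.3% of all tested miRNAs were). All 6 chosen miRNAs from Dlk1-Dio3, an imprinted locus that muscle also expresses, were called higher (16.1% of all were). Of 4 platelet and myeloid markers 0 were called in any comparison. Of 4 liver markers tested 0 were called between old groups (26.4% of all were) or between ages in normal mice (15.6%). In the latter comparison 3 of the 4 liver markers lay higher in old serum. The marker lists were chosen with earlier results of these data known, so these counts are a description and not a test.

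The summed level of those 6 Dlk1-Dio3 miRNAs ran from 59.6 to 125.3 CPM in old normal and from 240.5 to 2545 CPM in old dwarf libraries. The sum of the 7 muscle miRNAs ran from 320 (319.7) to 4071 CPM in old normal, 2016 to 5768 in old dwarf, 1073 to 7805 in young normal and 1809.9 to 5550.2 CPM in young dwarf libraries. Old normal replicate 4 held 4071 CPM of muscle miRNAs with 125.3 CPM of Dlk1-Dio3 miRNAs. The other libraries with a higher muscle sum held 1335 CPM or more of them.

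**Figure D4:**
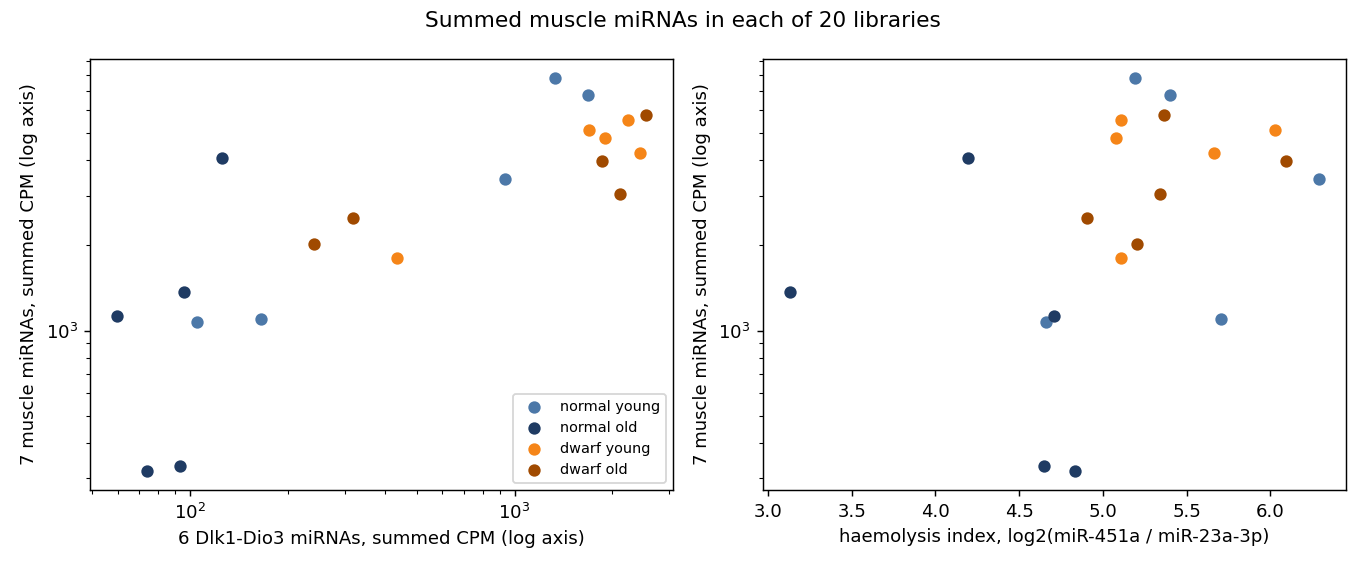
Summed CPM of the 7 muscle miRNAs in each of 20 libraries (log axis) against the summed CPM of 6 Dlk1-Dio3 miRNAs (left, log axis) and against the haemolysis index (right). Old normal replicate 4, at 4071 and 125.3 CPM, has a high muscle sum at a low Dlk1-Dio3 sum in the left panel.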

How the data were processed

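The deposited table holds whole-number read counts of small RNA from 20 serum libraries, with a row per mature miRNA and precursor, per the file headers. The authors' RPM values in the same table matched counts over the column sum within 0.005 RPM and entered no test. The submitters' processing notes list Bowtie 0.12.8, bedtools, edgeR, GRCm38 and mm10 but give no role for them. Per the labels' protocols, serum RNA was isolated by miRNeasy and sequenced from TruSeq small RNA libraries. Reads matching several precursors are listed in each row, so the row with the highest total was kept per name. The 2 rows of miR-133a-5p differed, so some of its reads were left out. In young normal replicate 2 it had 75 reads in the kept row and 122 with rows summed. The pooled miRDeep2 report was not used.

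Counts were tested with edgeR 4.0.16 (quasi-likelihood, TMM, limma 3.58.1, R 4.3.3) in 1 model with 4 group coefficients. The default filter (minimum count 10) left 360 miRNAs and at least 99.9% of reads. The common biological coefficient of variation was 47.5%. SE was derived from each log2 fold change and its F statistic. CPM uses TMM-scaled totals. Ratios were tested with 2-sided exact permutation tests. The planned ratio of miR-206-3p to miR-1a-3p was not tested, since miR-206-3p had 3 reads. DESeq2 1.42.0, other scalings, no filter, summed precursor rows, a replicate block, the haemolysis index as covariate and leaving out each library were tried. The genotype difference averaged over both ages and the ratios of miR-208b-3p were added after values had been seen. The code was tested on simulated data. The members and lists were chosen with earlier results of these data known. Names followed a rule: all members, their other arms with 10 reads, and up to 4 of the wider muscle list per comparison. The 3 miRNAs most like each of miR-1a-3p, miR-133a-3p and miR-206-3p (not tested) were also named. Outside this rule, miR-378a-3p and miR-221-3p were set beside miR-378a-5p and miR-222-3p. Intervals and limits for a count of 0 cover counting error only, and amplified reads are not independent molecules.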

Additional observations from a re-analysis of the deposited data

Results flagged for a closer look

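A library far from the other 4 of its group was found in 6 of the 44 sets of 5 values examined (7 miRNAs and 4 ratios in 4 groups). Its gap to the nearest library exceeded 0.71 of the group's range, which chance gives in about 1 of 20 sets of normally distributed values. The miRNA levels were CPM without a log transform, so that rate need not hold for them. The log2 ratios gave no flag. The sets are also not independent because these miRNAs vary together. Old normal replicate 4 was the highest library of its group in 5 of them. It held 1.63 CPM of miR-1a-3p, while the rest of its group held 0 to 0.397. It held 3968 CPM of miR-133a-3p, against 314 to 1352, and 9.80 CPM of miR-133a-5p, against 0 to 1.99. For the myosin miRNAs it held 22.3 CPM of miR-208b-3p, against 0.895 to 4.37, and 19.6 CPM of miR-499-5p, against 1.51 to 4.77. Young dwarf replicate 1 was the lowest library of its group in miR-133a-5p, at 7.11 CPM against 19.1 to 22.9.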

How the results depend on the processing

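The call of miR-208b-3p with both ages together kept its direction in all alternatives run and its side of the threshold in all but the haemolysis covariate, which left 0 members called. That covariate took calls over all miRNAs from 100 to 16 there, from 95 to 0 between old groups and from 56 to 1 between ages in normal mice. Members called in old dwarf against normal serum numbered 2 with RLE factors or no filter, where 118 and 95 of all miRNAs were called. They numbered 3 with DESeq2 or the replicate block (136 and 92 of all). In old against young normal serum they numbered 4 with library totals, DESeq2 or no filter (106, 117 and 71 of all). With both ages together they numbered 2 with DESeq2 or no filter (128 and 105 of all). With 1 library left out these member counts ran from 0 to 5, 0 to 5 and 1 to 3. Calls over all miRNAs then ran from 51 to 143, 29 to 123 and 54 to 145. Library totals moved the median of all miRNAs from log2 -0.06 to 0.23 between old groups and from -0.004 to -0.42 between ages in normal mice. Differences near 0 changed sign. mmu-miR-208b-3p, old normal against young normal, was -0.23 with library totals, -0.15 with the replicate block and -1.30 to 0.51 with 1 library left out. In old against young dwarf serum mmu-miR-133b-3p was 0.13 with the block (-0.62 to 0.0353 with 1 library left out). There mmu-miR-208b-3p was 0.0163 with upper-quartile factors and 0.14 with the block (-0.37 to 0.48). Also there mmu-miR-208a-3p was 0.0752 with upper-quartile factors, 0.0161 with only these groups and 0.0142 with the haemolysis index (-0.44 to 0.25). The difference of age effects of mmu-miR-208b-3p was 0.29 with the block (-0.61 to 1.19). With 1 library left out, young dwarf against normal values ran from -0.15 to 0.46 for mmu-miR-133a-3p, -0.0631 to 0.80 for mmu-miR-133b-3p and -0.70 to 0.16 for mmu-miR-499-5p. Likewise mmu-miR-208a-3p ran from -0.084 to 0.9997 between old groups and from -0.47 to 0.0523 with both ages together, where mmu-miR-499-5p ran from -0.0552 to 0.67. The log2 ratio of miR-133a-3p to miR-1a-3p became -0.44 between old groups and 0.0808 between ages in normal mice, with 0.5 added or precursor rows summed. It ran from -0.19 to 0.32 between old groups and from -0.0478 to 0.46 between ages in dwarf mice with 1 library left out. The ratio of miR-208b-3p to miR-208a-3p between ages in dwarf mice ran from -0.14 to 0.94. Apart from fewer samples or features tested, the cause of these changes was not tested. Replicate numbers did not pair the samples: 13 of 30 same-numbered pairs had a correlation above 0.1 (-0.676 to 0.808), and 4 of 30 matched their own number best. Low counts limit miR-1a-3p, with 4 reads in old normal libraries, and miR-206-3p.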
